A study of Mus musculus with 8 samples.

Results

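Molecular chaperones named as heat shock proteins, J proteins, BAG proteins and CCT chaperonin subunits were examined in the striatum of CHL2 and wild-type mice. Members were taken by symbol alone: every gene whose array symbol starts with Hspa, Hspb, Hsp90, Hsph1, Hspd1, Hspe1, Dnaja, Dnajb or Dnajc, or is Bag or Cct followed by a digit. This gave 87 of the 18193 genes that had a probe set assigned to a single gene, and each is read from whichever of its probe sets was brightest on average. Hsp90ab1, Hsf1 and Dnajc19 had no such probe set in the annotation used here and were not analysed here. The members comprised 14 Hsp70 and Hsp110 genes, 2 Hsp90 genes, the 2 genes of the mitochondrial chaperonin, 9 Cct genes, 4 Dnaja, 13 Dnajb and 27 Dnajc genes, 8 small heat shock protein genes, 2 genes for binding proteins with the Hspb prefix (Hspbp1 and Hspbap1) and 6 Bag genes.

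The CHL2 group was 4 mice homozygous for a knock-in of 150 CAG repeats, taken from exon 1 of the human Huntington's disease gene, at the endogenous mouse locus. Of these, mice 141, 153 and 154 were female and mouse 191 was male. The wild-type group was 4 mice, of which mouse 161 was female and mice 170, 180 and 200 were male. All 8 mice were C57BL/6 X CBA F1 hybrid animals aged 22 months, and each gave 1 array of striatal RNA. The knock-in allele is in every cell of the animal, so a change in striatum is not tied by the model to 1 cell type. With both genotype and recorded sex in the fit, mice 191 and 161 weigh most, because each is the single mouse of its sex in its group.

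Chaperones of the Hsp70 class bind exposed hydrophobic stretches of proteins in a cycle driven by ATP. J proteins deliver clients and trigger ATP hydrolysis, while exchange factors such as Hsph1 and the BAG proteins release ADP. Hsp90 acts on clients handed over from Hsp70, and the CCT ring folds actin, tubulin and other cytosolic proteins inside a closed chamber. Several of these proteins are known from cell and animal models to bind polyglutamine fragments or limit their aggregation, and part of the family is switched on by heat shock factors after protein damage.

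Values are log2 expression levels, and a log2 change is CHL2 minus wild-type, adjusted for sex. The levels of single mice are not adjusted for sex, and neither is the statement that groups overlap or do not. A gene is said to rise or fall where limma's moderated test gave a Benjamini-Hochberg adjusted p under 0.05 over all 18193 genes. The p-values set a change against the spread between mice left after genotype and sex, with 4 mice per group. Both groups share this estimate, which limma moderates over all genes, and the number of arrays limits the precision. Array medians lay between 4.95 and 4.98. Wild-type mouse 170 stood apart in RNA quality, with a 3' minus 5' difference of 1.37 for the Gapdh control probe sets, against 0.32 to 0.43 in the CHL2 mice and 0.32 to 0.34 in the other 3 wild-type mice. Markers of medium spiny neurons, the main neurons of striatum, were measured above background. All 11 fell in CHL2 mice, and their summed linear level was 12570 to 14551 in CHL2 mice and 34793 to 39783 in wild-type mice. The 8 pan-neuronal markers summed to 23048 to 25033 in CHL2 and 21592 to 24414 in wild-type mice, and Stmn2 among them rose. The 8 astrocyte markers summed to 15038 to 16872 in CHL2 and 16421 to 17998 in wild-type mice, and Gfap and S100b among them rose. The 7 oligodendrocyte markers summed to 25545 to 27648 in CHL2 and 26133 to 30153 in wild-type mice, with Opalin higher and Mobp lower. The 8 microglial markers summed to 3226 to 3744 in CHL2 and 3215 to 3618 in wild-type mice, and none of them passed. Of 7 choroid plexus and ependyma markers 2 fell (Ccdc153 and Rsph1), and their sums varied widely within both groups, from 1940 to 17409 in CHL2 and 3440 to 15936 in wild-type mice. None of 8 endothelial and mural, 4 cortical and 2 blood markers passed. Of 10 immediate early genes 5 fell (Junb, Egr1, Egr2, Nr4a1 and Dusp1). The part of these lists in the changes of chaperone genes was not tested, and in this bulk tissue fewer cells of a type and less RNA per cell cannot be told apart.

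Most chaperone genes showed small differences. Of the 87, 7 rose (Hspa13, Dnajc12, Dnaja1, Cct8, Hspa12a, Cct6a and Dnajc6) and 2 fell (Dnajc8 and Dnajc2), while 78 did not pass. At an unadjusted p under 0.05 there were 27 (31.0%), beside 25.9% of all genes. The 9 are 10.3% of the members, against 12.4% of all genes tested, so the share was near that of the array as a whole. By direction, 8.05% of the members rose against 6.4% of all genes, and 2.30% fell against 6.01%. The members' log2 changes ran from -0.56 to 0.64 with a median of 0.08, beside a median of 0.01 over all genes, and 58 of 87 (66.7%) lay above 0, beside 51.2% of all genes. In 18 members all CHL2 values lay above all wild-type values, which is 20.7% of the members and 11.4% of all genes, and in 5 they all lay below, which is 5.75% against 9.27%. For 16 members all 8 values lay under 5 (log2 of 32), near the background of the array, and none of the 16 passed. Of the 71 others 12.7% passed, beside 18.1% of the genes above that level. By direction, 9.86% of the 71 rose and 2.82% fell, beside 9.37% and 8.76% of those genes. Their log2 change lay above 0 in 69.0%, beside 55.8%. All CHL2 values lay above all wild-type values in 25.4%, beside 16.4%, and below them in 7.04%, beside 12.7%.

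The count depended on mice 191 and 161. Without CHL2 191 the fit with sex compares the female CHL2 mice with wild-type 161 alone, and 1 member rose (Dnajc12) and 1 fell (Hspb1), beside 1.61% and 2.25% of all genes (3.86% in either direction). Without wild-type 161 it compares CHL2 191 alone with the male wild-type mice, and 2 members rose (Hspa13 and Hspa5) and 1 fell (Dnajc8), beside 1.96% and 2.79% of all genes (4.75% in either direction). With sex left out and all 8 mice kept, 15 rose and 3 fell, beside 7.66% and 7.5% of all genes (15.2% in either direction). With neither sex nor CHL2 191 in the fit, 14 rose and 2 fell, beside 6.63% and 7.1% of all genes (13.7% together), and with neither sex nor wild-type 161, 13 rose and 2 fell, beside 6.12% and 7.07% (13.2% together). Without wild-type 170, the mouse with the larger 3' to 5' difference, 4 rose and 2 fell, beside 6.22% and 5.61% of all genes (11.8% together). Without wild-type 200 also 4 rose and 2 fell, beside 4.78% and 5.05% (9.83% together).

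**Figure D1:**
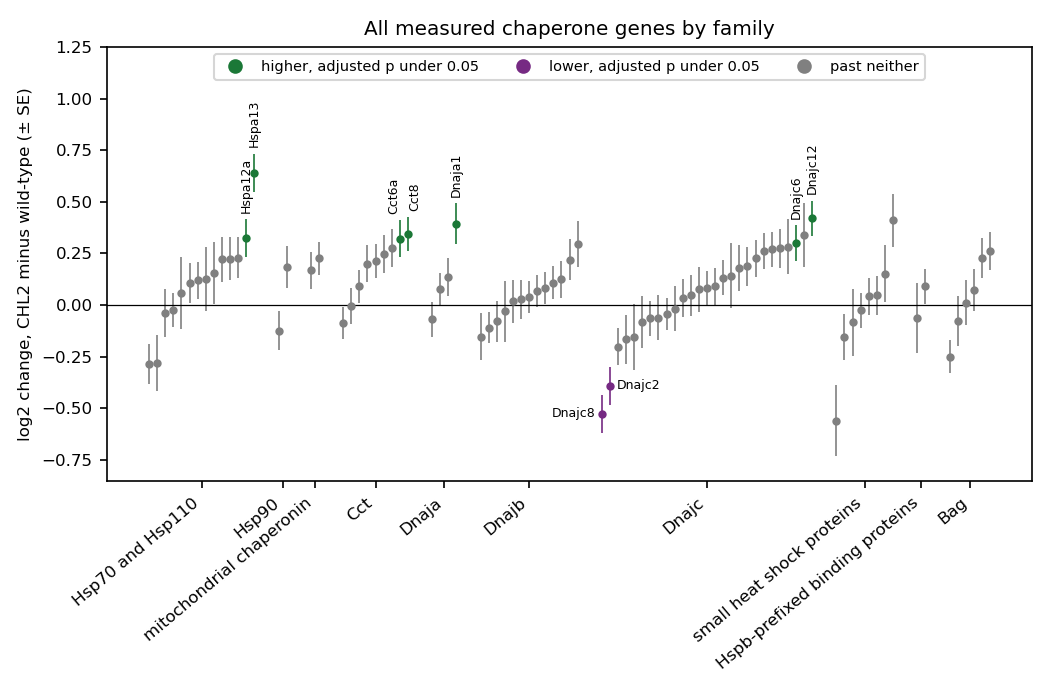
The log2 change (CHL2 minus wild-type, adjusted for sex) of all 87 measured members, grouped by family and sorted within it, with bars of 1 SE. Green points rose and purple points fell at an adjusted p under 0.05. Most points lie within 0.3 of 0, and Hspa13 at 0.64 is the highest.

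Promoters of 6 members are printed because heat shock factors act through a DNA element built of alternating GAA and TTC units, and these 6 show different arrangements in 2 members that rose (Dnaja1 and Cct6a) and 4 that did not pass. They run from 250 bases before to 50 bases after a gene start, 5' to 3' on the gene's strand, are credited to RefSeq in build GRCm38.p6, and carry the 2-unit cores GAANNTTC and TTCNNGAA in capitals. Where several promoters were listed (3 for Dnaja1, 2 each for Hspd1 and Hsph1), the first that held a core is printed. The windows are chr4:40722218-40722517 (forward strand) for Dnaja1, chr5:129787106-129787405 (forward) for Cct6a, chr1:55087883-55088182 (reverse) for Hspd1, chr5:149636287-149636586 (reverse) for Hsph1, chr5:135887669-135887968 (forward) for Hspb1 and chr17:34959189-34959488 (reverse) for Hspa1b.
Dnaja1: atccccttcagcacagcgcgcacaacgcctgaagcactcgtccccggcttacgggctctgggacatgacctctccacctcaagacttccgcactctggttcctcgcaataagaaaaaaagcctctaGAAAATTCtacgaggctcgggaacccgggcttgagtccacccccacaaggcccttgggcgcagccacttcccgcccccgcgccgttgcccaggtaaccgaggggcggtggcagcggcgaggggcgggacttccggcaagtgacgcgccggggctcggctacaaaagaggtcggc
Cct6a: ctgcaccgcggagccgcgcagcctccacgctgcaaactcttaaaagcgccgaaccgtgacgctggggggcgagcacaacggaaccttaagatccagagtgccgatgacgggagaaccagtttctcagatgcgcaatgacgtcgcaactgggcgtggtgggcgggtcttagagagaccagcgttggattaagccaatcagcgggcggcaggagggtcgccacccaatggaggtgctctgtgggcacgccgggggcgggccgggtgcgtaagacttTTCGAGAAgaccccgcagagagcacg
Hspd1: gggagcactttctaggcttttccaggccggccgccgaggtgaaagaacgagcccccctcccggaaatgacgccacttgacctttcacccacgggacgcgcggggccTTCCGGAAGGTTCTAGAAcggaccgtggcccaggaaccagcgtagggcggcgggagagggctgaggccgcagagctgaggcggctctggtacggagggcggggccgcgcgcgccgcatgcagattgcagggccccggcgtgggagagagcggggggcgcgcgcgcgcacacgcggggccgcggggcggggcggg
Hsph1: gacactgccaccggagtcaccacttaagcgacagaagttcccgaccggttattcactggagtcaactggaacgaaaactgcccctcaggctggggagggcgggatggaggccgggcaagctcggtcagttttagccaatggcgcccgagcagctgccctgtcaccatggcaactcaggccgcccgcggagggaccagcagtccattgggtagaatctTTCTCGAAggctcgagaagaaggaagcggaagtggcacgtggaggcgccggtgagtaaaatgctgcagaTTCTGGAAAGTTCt
Hspb1: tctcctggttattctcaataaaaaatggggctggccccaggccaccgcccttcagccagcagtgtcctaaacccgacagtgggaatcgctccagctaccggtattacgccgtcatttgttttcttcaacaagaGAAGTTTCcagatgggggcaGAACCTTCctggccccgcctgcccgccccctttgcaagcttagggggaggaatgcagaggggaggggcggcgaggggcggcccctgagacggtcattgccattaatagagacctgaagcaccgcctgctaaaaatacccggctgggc
Hspa1b: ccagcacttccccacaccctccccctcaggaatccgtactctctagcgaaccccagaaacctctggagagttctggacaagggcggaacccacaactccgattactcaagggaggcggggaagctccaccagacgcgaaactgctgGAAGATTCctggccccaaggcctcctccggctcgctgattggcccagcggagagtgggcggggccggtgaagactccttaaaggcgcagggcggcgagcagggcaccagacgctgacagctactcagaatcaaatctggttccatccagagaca

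Both cores read the same on the opposite strand, so 1 search covers both strands. Promoters of 72 of the 87 members were found in the RefSeq table, and 17 of them (23.6%) held GAANNTTC, beside 9.04% of the 27025 genes in the table. TTCNNGAA was found for 8 members (11.1%), beside 9.60% of all genes. The 3-unit form, in which both cores share 1 unit, was found for 4 members (Hspd1, Hspe1, Hsph1 and Dnajb6; 5.56%), beside 0.66% of all genes. Hspd1 and Hspe1 lie head to head in the genome and have the same counts of cores, so 1 stretch may be counted for both. The Hspd1 window holds 2 overlapping 3-unit forms, whose units start 144 bases before the Hspd1 start. In Hspa1b the core starts 104 bases before the start, and in Hspb1 the 2 cores start 117 and 97 bases before it. In Dnaja1 the core starts 124 bases before it. The Cct6a core lies after the gene start, at base 25. In Hsph1, 1 core starts 33 bases before the start, and the 3-unit form lies after it, from base 37. Of the 9 members that rose or fell, 6 had a promoter in the table and 2 (Dnaja1 and Cct6a) held a core. A core of either kind was held by 29.2% of the 72 members and 17.0% of all genes in the table. None of the 4 members with the 3-unit form rose or fell, beside 12.4% of all genes on the array that did. Their adjusted p values by limma were 0.0902 for Hspd1, 0.281 for Hspe1, 0.0819 for Hsph1 and 0.574 for Dnajb6. With 6 and 4 genes these counts are small, and a relation of cores to changes was not tested. A match is a description of these letters and not a measured binding site.

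Among the Hsp70 genes, Hspa13 showed the largest rise of any member. Hspa13 encodes an Hsp70-like ATPase of the secretory pathway that lacks the usual peptide-binding part. Its level was 9.21, 9.31, 9.41 and 9.61 in CHL2 mice 141, 153, 154 and 191, and 8.80, 8.83, 8.87 and 8.82 in wild-type mice 161, 170, 180 and 200. All CHL2 values lay above all wild-type values, and the highest was that of mouse 191. The log2 change was 0.64 (SE 0.09), or 1.56-fold, with limma's adjusted p = 0.00146. Of its other 3 probe sets, 1 rose by itself with a log2 change of 0.80 (adjusted p = 0.00199 over all probe sets), and the remaining 2 lay in the same direction. The call was kept without wild-type 161 (0.78, adjusted p = 0.00875) and not without CHL2 191 (0.51, adjusted p = 0.0550).

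Hspa12a, a distant Hsp70 relative that is abundant in brain, stood at 8.18, 8.38, 8.41 and 8.49 in CHL2 mice and at 8.09, 8.03, 8.04 and 8.15 in wild-type mice. The groups lay side by side without overlap, with CHL2 141 just above wild-type 200. Its log2 change of 0.32 (SE 0.09, limma's adjusted p = 0.0470) lost the call in 14 of 19 other settings, among them the fits without wild-type 170 (adjusted p = 0.0722), 161 (0.12) or CHL2 191 (0.398). Of its 4 probe sets, 1 dim one lay in the opposite direction. The probe set used carries an array suffix that marks probes shared with other sequences.

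The heat-inducible Hsp70 genes did not pass. Hspa1a measured 5.00, 5.33, 5.71 and 5.29 in CHL2 mice and 5.31, 5.00, 5.04 and 5.18 in wild-type mice (log2 change 0.13, SE 0.15, limma's adjusted p = 0.684). Hspa1b measured 4.20, 4.49, 4.38 and 4.22 in CHL2 mice and 4.86, 4.42, 4.05 and 4.38 in wild-type mice (log2 change -0.28, SE 0.14, limma's adjusted p = 0.225). The groups overlapped for both, all Hspa1b values lay near background, and the highest Hspa1b value was that of wild-type 161. The 2 genes are nearly identical in sequence, so their probe sets may share signal.

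The constitutive cytosolic Hsp70 gene Hspa8 depended on the probe set. Its brightest probe set read 13.29, 13.28, 13.10 and 12.90 in CHL2 mice and 13.08, 12.90, 12.80 and 12.71 in wild-type mice (log2 change 0.12, SE 0.09, limma's adjusted p = 0.462), and the groups overlapped. The next brightest read 12.98, 12.98, 13.07 and 13.08 in CHL2 mice and 12.77, 12.43, 12.53 and 12.51 in wild-type mice, with no overlap. Tested among all probe sets, it rose with a log2 change of 0.41 (SE 0.10, adjusted p = 0.0361), and the next in brightness gave 0.38 (adjusted p = 0.0700) with overlapping groups. Both of the brightest carry an array suffix that marks probes shared with other sequences.

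Hspa5, the main Hsp70 of the endoplasmic reticulum, measured 10.82, 10.72, 10.64 and 10.96 in CHL2 mice and 10.96, 10.47, 10.45 and 10.30 in wild-type mice. Wild-type 161 lay level with CHL2 191, the highest CHL2 mouse, and the other 3 wild-type mice were the lowest of all 8. The log2 change was 0.15 (SE 0.15, limma's adjusted p = 0.592). It was 0.55 without wild-type 161 (adjusted p = 0.0441) and -0.24 without CHL2 191 (adjusted p = 0.368), so its direction depended on the mice kept. The 10 immediate early genes measured summed to 3321 to 4160 in CHL2 mice, against 10448 in wild-type 161 and 3724 to 5695 in wild-type 170, 180 and 200. Their part in the Hspa5 value was not tested. Hspa9, the Hsp70 of mitochondria, had a log2 change of 0.22 (SE 0.11, limma's adjusted p = 0.233) and Hspa4, an Hsp110-type exchange factor, one of -0.02 (SE 0.08, adjusted p = 0.896). Hsph1, the Hsp110 exchange factor whose promoter is printed above, read 10.87, 10.81, 10.87 and 10.97 in CHL2 mice and 11.32, 11.15, 11.06 and 11.01 in wild-type mice. All CHL2 values lay below all wild-type values, and the log2 change of -0.29 (SE 0.10) missed the threshold (limma's adjusted p = 0.0819), though it passed with a trended and robust prior and when dimmer genes were left out. The log2 change was -0.46 without CHL2 191 (adjusted p = 0.0644) and -0.11 without wild-type 161 (adjusted p = 0.707). Hspa2 gave 0.23 (adjusted p = 0.179) and Hspa4l 0.22 (adjusted p = 0.210), while Hspa12b and Hspa1l joined Hspa1b under 5 in all mice.

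Neither Hsp90 gene passed on its brightest probe set, and 2 other probe sets of Hsp90aa1, the stress-responsive cytosolic Hsp90, rose. The brightest read 12.30, 12.30, 12.17 and 11.78 in CHL2 mice and 11.95, 11.70, 11.87 and 11.56 in wild-type mice (log2 change 0.19, SE 0.10, limma's adjusted p = 0.295). CHL2 191 lay among the wild-type values there. The second read 11.97, 11.94, 11.90 and 11.85 in CHL2 mice and 11.62, 11.39, 11.51 and 11.24 in wild-type mice, and the next 11.82, 11.81, 11.93 and 11.86 in CHL2 mice and 11.38, 10.92, 11.30 and 11.21 in wild-type mice. Neither overlapped between the groups. Their log2 changes were 0.40 (SE 0.09, adjusted p = 0.0348) and 0.59 (SE 0.11, adjusted p = 0.0143) among all probe sets tested. Hsp90b1, the Hsp90 of the endoplasmic reticulum, had a log2 change of -0.12 (SE 0.10, limma's adjusted p = 0.486).

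**Figure D2:**
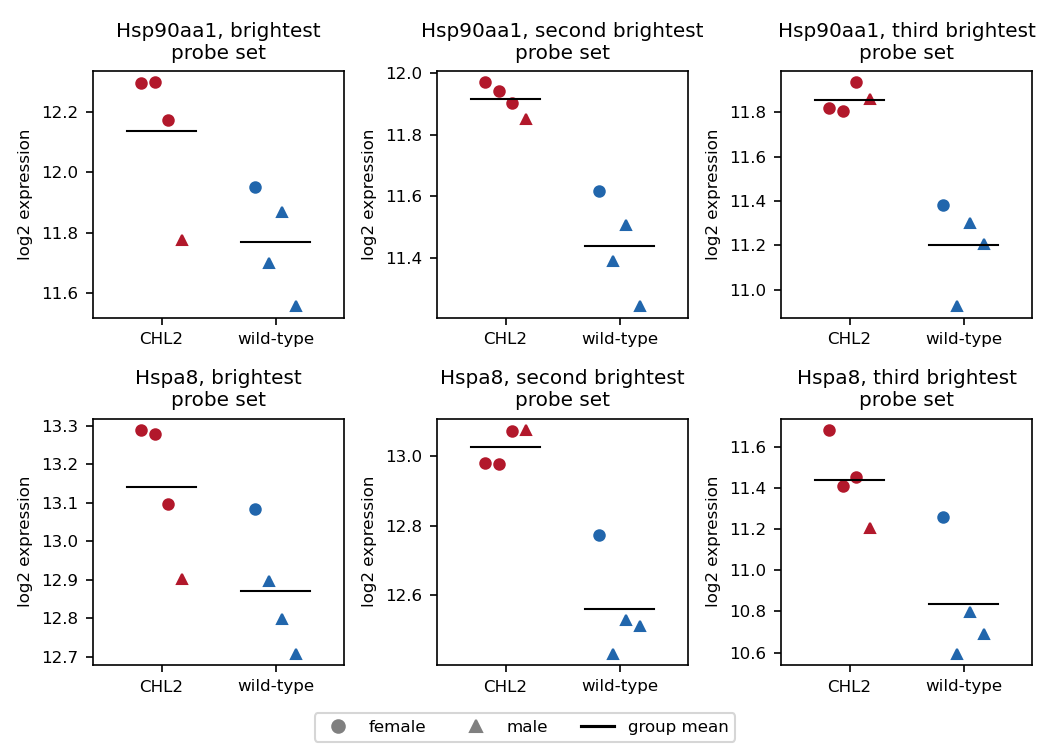
Log2 expression of Hsp90aa1 (top) and Hspa8 (bottom) by mouse in each gene's 3 brightest probe sets, with CHL2 left of wild-type, circles for females, triangles for males and lines for group means. In the brightest probe set of both genes the male CHL2 mouse lies among the wild-type mice, while the second probe set separates the groups in both.

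Of the 9 genes named Cct, 2 rose (Cct8 and Cct6a), beside 6.4% of all genes, and 7 did not pass. Cct8, the theta subunit, read 9.64, 9.63, 9.66 and 9.65 in CHL2 mice and 9.39, 9.15, 9.27 and 9.25 in wild-type mice. The CHL2 mice were almost equal and all above wild-type 161, the highest wild-type mouse. The log2 change was 0.34 (SE 0.08), or 1.27-fold, with limma's adjusted p = 0.0198. Cct6a, the zeta subunit, read 11.01, 10.89, 11.02 and 10.97 in CHL2 mice and 10.66, 10.51, 10.76 and 10.69 in wild-type mice, again without overlap. Its log2 change of 0.32 (SE 0.09) had limma's adjusted p = 0.0425, and a second probe set gave 0.32 as well. Without CHL2 191 the adjusted p was 0.269 for Cct8 and 0.245 for Cct6a, without wild-type 161 it was 0.0680 and 0.232, and without wild-type 170 it was 0.0291 and 0.0534.

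The other CCT subunits did not pass. Cct2, the beta subunit, read 10.60, 10.83, 10.56 and 10.61 in CHL2 mice and 10.38, 10.42, 10.31 and 10.29 in wild-type mice (log2 change 0.28, SE 0.09, limma's adjusted p = 0.0823). A second Cct2 probe set, with 10.57, 10.62, 10.55 and 10.49 in CHL2 mice and 10.22, 10.03, 10.06 and 10.07 in wild-type mice, rose among all probe sets (log2 change 0.40, SE 0.08, adjusted p = 0.0157). Cct4 gave 0.25 (adjusted p = 0.119), Cct3 0.21 (0.129), Cct5 0.20 (0.177) and Cct7 0.09 (0.543) on the log2 scale. Tcp1, the alpha subunit, which the symbol rule leaves out, gave 0.08 (SE 0.08, limma's adjusted p = 0.589). With Tcp1, the log2 change was above 0 in 8 of 8 subunit genes, from 0.08 to 0.34 with a median of 0.23. In 6 of 8 the CHL2 and wild-type values did not overlap, which held for 11.4% of all genes in this direction. Among genes with a value of 5 or more in any mouse, 55.8% lay above 0 and 16.4% did not overlap in this direction. The probe sets used for Cct2, Cct3 and Cct4 carry the suffix for probes shared with other sequences. Cct6b and Cct8l1, relatives of the ring subunits, lay under 5 in all 8 mice, with log2 changes of -0.09 and -0.01.

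**Figure D3:**
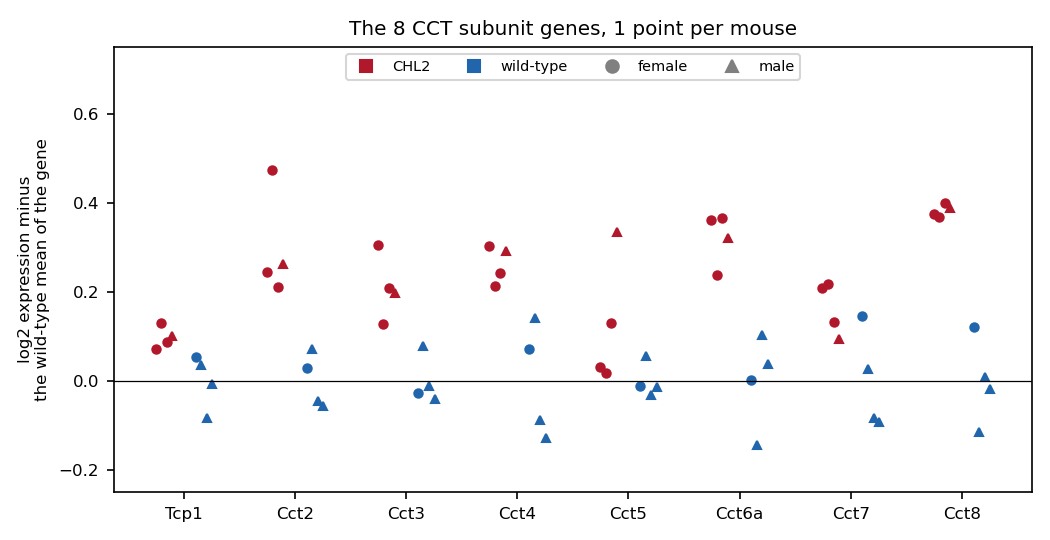
Log2 expression of the 8 CCT subunit genes by mouse, less the wild-type mean of each gene, with CHL2 (red) left of wild-type (blue), circles for females and triangles for males. CHL2 mice lie above 0 for all 8 subunits and overlap with wild-type mice in Cct5 and Cct7.

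In the mitochondrial chaperonin, Hspd1 (Hsp60) read 10.62, 10.56, 10.66 and 10.65 in CHL2 mice and 10.45, 10.39, 10.36 and 10.34 in wild-type mice. The groups did not overlap, and the log2 change of 0.23 (SE 0.08) had limma's adjusted p = 0.0902. It passed with the sex term left out, with a trended and robust prior, without dimmer genes and with values held at the floor of 5. Its co-chaperonin Hspe1 (Hsp10), its head-to-head neighbour, gave 0.17 (SE 0.09, adjusted p = 0.281) with overlapping groups.

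Of the 44 J protein genes 5 passed (11.4%), a share near the 12.4% of all genes. In the Dnaja class, 1 of 4 rose, beside 6.4% of all genes. Dnaja1, a partner of Hspa8 in the cytosol, read 11.12, 11.15, 11.26 and 11.25 in CHL2 mice and 10.93, 10.57, 10.77 and 10.78 in wild-type mice, with all CHL2 mice above all wild-type mice. Its log2 change was 0.39 (SE 0.10), or 1.31-fold (limma's adjusted p = 0.0268), and all 3 of its probe sets lay in this direction. The log2 change was 0.25 without CHL2 191 (adjusted p = 0.370) and 0.54 without wild-type 161 (adjusted p = 0.0504). Dnaja2, its closest cytosolic relative, gave 0.14 (SE 0.09, adjusted p = 0.414), the mitochondrial Dnaja3 0.08 (0.625) and Dnaja4 -0.07 (0.685), all with overlapping groups.

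Of 13 Dnajb genes, 0 rose and 0 fell by limma's test, and 1 (Dnajb14) had an unadjusted p under 0.05, beside 25.9% of all genes, while 1 (Dnajb1) rose with the sex term left out. Dnajb1, the classical heat-inducible Hsp40, read 9.84, 9.92, 9.66 and 9.67 in CHL2 mice and 9.72, 9.33, 9.38 and 9.25 in wild-type mice. Wild-type 161 lay among the CHL2 values, and the log2 change was 0.22 (SE 0.10, limma's adjusted p = 0.196). Dnajb6 and Dnajb2, both known as suppressors of polyglutamine aggregation in models, had log2 changes of 0.08 (SE 0.08, adjusted p = 0.574) and 0.03 (SE 0.10, adjusted p = 0.90). Dnajb5 read 8.54, 8.33, 8.53 and 8.36 in CHL2 mice and 8.80, 8.47, 8.26 and 8.25 in wild-type mice, with overlap and with wild-type 161 highest (log2 change -0.15, SE 0.11, limma's adjusted p = 0.453). Dnajb9 and Dnajb11, J proteins of the endoplasmic reticulum, gave 0.11 (adjusted p = 0.444) and 0.07 (0.660). Dnajb4 gave -0.11 (adjusted p = 0.419) and Dnajb12 0.02 (adjusted p = 0.943). Dnajb3, Dnajb7, Dnajb8 and Dnajb13 lay under 5 in all mice.

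Of 27 Dnajc genes, which share only the J domain and have separate client pathways, 2 rose and 2 fell. In each direction this is 7.41%, beside 6.4% higher and 6.01% lower over all genes. Dnajc8, a J protein found with the splicing machinery, fell furthest among the members that passed. It read 10.26, 10.40, 10.33 and 10.30 in CHL2 mice and 10.78, 11.03, 10.79 and 10.91 in wild-type mice, with a wide gap between the groups. Its log2 change was -0.53 (SE 0.09), a 1.44-fold fall, with limma's adjusted p = 0.00457. Its second probe set gave the same log2 change of -0.53 (adjusted p = 0.0177 among all probe sets). The call was kept in 18 of 19 other settings and not without CHL2 191 (-0.44, adjusted p = 0.107).

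Dnajc2, which sits at the ribosome with the Hsp70 Hspa14, read 8.31, 8.50, 8.22 and 8.14 in CHL2 mice and 8.66, 8.62, 8.62 and 8.58 in wild-type mice. The wild-type mice were close together and all above the CHL2 mice. Its log2 change was -0.39 (SE 0.09, limma's adjusted p = 0.0201), a 1.31-fold fall. Its second bright probe set gave -0.40 (adjusted p = 0.0447), while 1 of 2 dim ones lay in the opposite direction. Both bright probe sets carry an array suffix that marks probes shared with other sequences. The call was lost in 6 of 19 other settings, among them the mean of probe sets. The adjusted p was 0.252 without CHL2 191 and 0.0846 without wild-type 161. Hspa14 itself had a log2 change of 0.11 (SE 0.10, adjusted p = 0.564).

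Dnajc12, a J protein that assists aromatic amino acid hydroxylases such as tyrosine hydroxylase, read 8.20, 8.30, 8.19 and 8.28 in CHL2 mice and 7.69, 8.03, 7.99 and 7.92 in wild-type mice. All CHL2 mice were above all wild-type mice, and wild-type 161 was the lowest. The log2 change was 0.42 (SE 0.09), or 1.34-fold, with limma's adjusted p = 0.0108, and it was 0.30 without wild-type 161 (adjusted p = 0.201).

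Dnajc6 and Dnajc5 act with Hspa8 at nerve terminals. Dnajc6 (auxilin), which strips clathrin from vesicles, read 10.78, 10.93, 10.79 and 10.68 in CHL2 mice and 10.50, 10.39, 10.52 and 10.32 in wild-type mice, without overlap. Its log2 change of 0.30 (SE 0.09, 1.23-fold, limma's adjusted p = 0.0490) lay just inside the threshold and lost the call in 11 of 19 other settings. Among them were the fits without CHL2 191 (0.33, adjusted p = 0.214), wild-type 161 (0.27, adjusted p = 0.307) and wild-type 170 (0.30, adjusted p = 0.0698). Dnajc5 (cysteine string protein), a chaperone of synaptic vesicles, read 10.29, 10.29, 10.25 and 10.16 in CHL2 mice and 9.91, 10.04, 10.04 and 9.89 in wild-type mice. The groups did not overlap, and the log2 change of 0.27 (SE 0.08) missed the threshold (limma's adjusted p = 0.0658), while it passed without the sex term (0.28, adjusted p = 0.0236).

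The remaining Dnajc genes lay between -0.20 and 0.34 on the log2 scale. Besides Dnajc5, Dnajc6 and Dnajc12, the groups did not overlap, with CHL2 higher, for Dnajc4 (log2 change 0.28, SE 0.10, limma's adjusted p = 0.0915), Dnajc9 (0.26, adjusted p = 0.0867), Dnajc27 (0.23, adjusted p = 0.133) and Dnajc30 (0.13, adjusted p = 0.380). Dnajc9 acts as a histone chaperone, and Dnajc30 is a protein of mitochondria. Dnajc7, which binds both Hsp70 and Hsp90, read 10.20, 10.22, 10.03 and 10.13 in CHL2 mice and 10.32, 10.45, 10.25 and 10.40 in wild-type mice. Every CHL2 mouse lay below every wild-type mouse, and the log2 change of -0.20 (SE 0.09) did not pass (limma's adjusted p = 0.191). Dnajc3, an inhibitor of the stress kinase PERK in the endoplasmic reticulum, read 7.35, 7.05, 7.43 and 7.78 in CHL2 mice and 7.26, 7.17, 7.31 and 7.21 in wild-type mice, with overlap and with CHL2 191 highest (log2 change 0.28, SE 0.13, limma's adjusted p = 0.214). The other 14 above background overlapped between the groups: Dnajc1, Dnajc10, Dnajc11, Dnajc13, Dnajc14, Dnajc15, Dnajc16, Dnajc17, Dnajc18, Dnajc21, Dnajc22, Dnajc24, Dnajc25 and Dnajc28. The largest change among these was that of Dnajc24 (0.34, SE 0.15, adjusted p = 0.195), a J protein of diphthamide synthesis. Dnajc5b and Dnajc5g, relatives of Dnajc5 known from testis, lay under 5 in all mice.

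**Figure D4:**
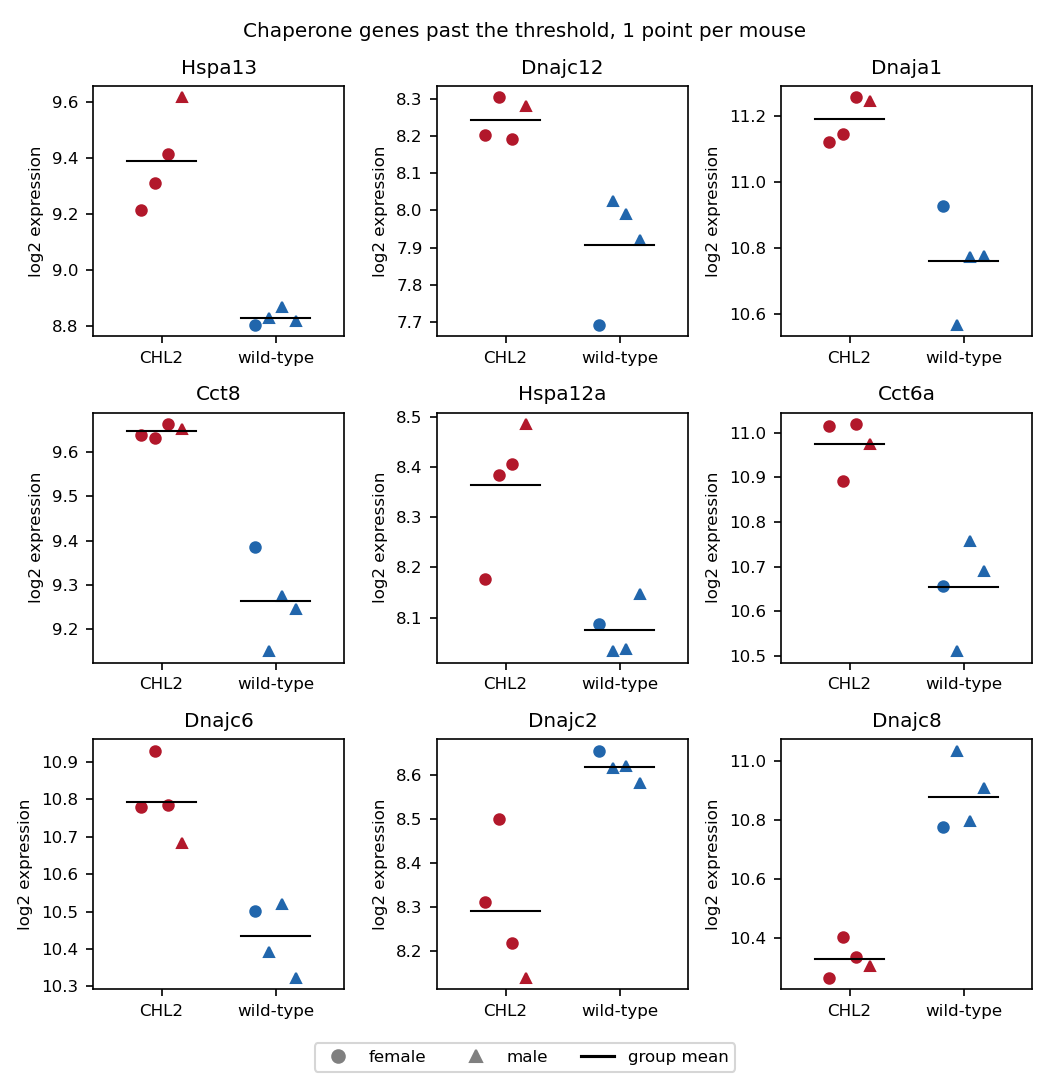
Log2 expression by mouse of the 9 members with an adjusted p under 0.05, with CHL2 left of wild-type in each panel, circles for females, triangles for males and lines for group means. The vertical scale differs between panels and does not start at 0. The groups do not overlap in any panel, and the single male CHL2 mouse is the highest CHL2 mouse for Hspa13 and Hspa12a and the lowest for Dnajc2 and Dnajc6.

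None of the 8 small heat shock protein genes passed limma's test (2 had an unadjusted p under 0.05, beside 25.9% of all genes), and 1 of them, Hspb1, had the most negative log2 change of the whole family at -0.56 (SE 0.17, adjusted p = 0.0629). Hspb1 (Hsp25, the mouse form of Hsp27) read 7.16, 7.0, 7.23 and 7.26 in CHL2 mice and 8.13, 7.33, 7.22 and 7.58 in wild-type mice. The groups overlapped, and wild-type 161 stood well above the rest. Without that mouse the log2 change was -0.12 (adjusted p = 0.782), and without CHL2 191 it was -1.0 (adjusted p = 0.0105). It also passed without wild-type 180, with a trended and robust prior and without dimmer genes. Hspb6 lay apart in the other direction, at 6.69, 6.90, 6.35 and 6.32 in CHL2 mice and 6.13, 5.97, 6.11 and 5.99 in wild-type mice, with a log2 change of 0.41 (SE 0.13, limma's adjusted p = 0.0689). Hspb8, which works with Bag3 in the removal of aggregates, had a log2 change of -0.08 (SE 0.16, adjusted p = 0.811). Hspb2, Hspb3, Hspb7 and Hspb9 lay under 5 in all mice, and Hspb11 gave -0.03 (adjusted p = 0.897). Of the binding proteins, Hspbp1 gave 0.09 (adjusted p = 0.585) and Hspbap1 -0.06 (adjusted p = 0.871). Cryab, the small heat shock protein alphaB-crystallin, is not a member by its symbol and had a log2 change of 0.01 (SE 0.10, adjusted p = 0.970).

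Of the 6 Bag genes, 0 passed limma's test and 3 had an unadjusted p under 0.05, beside 25.9% of all genes. Bag3 read 6.43, 6.08, 6.56 and 6.34 in CHL2 mice and 6.42, 6.51, 6.30 and 6.47 in wild-type mice (log2 change -0.08, SE 0.12, limma's adjusted p = 0.762), and Bag1 gave 0.07 (SE 0.10, adjusted p = 0.731). Bag5, an exchange factor with several BAG domains, was the member just outside the threshold among them, with 8.89, 8.95, 8.78 and 9.02 in CHL2 mice and 9.13, 9.22, 9.27 and 9.29 in wild-type mice. All CHL2 mice lay below all wild-type mice (log2 change -0.25, SE 0.08, limma's adjusted p = 0.0710), and it fell with the sex term left out. Bag2 lay under 5 in all mice, and Bag4 gave 0.23 (adjusted p = 0.162) and Bag6 0.01 (adjusted p = 0.967).

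Probe sets of 1 gene did not always move together. Of the 54 members with more than 1 probe set, 30 had all of them in 1 direction and 24 had at least 1 in the other. Tested singly among all 45037 probe sets, 11 of the members' 209 rose and 4 fell, which is to be set beside 3.26% and 3.44% of all probe sets. The 11 belonged to 9 genes, of which Hspa13, Dnajc12, Dnaja1 and Cct8 also rose in the test of 1 probe set per gene, and Cct2, Cct4, Hsp90aa1, Hspa8 and Dnajc18 did not. The Cct4 probe set that rose lay near background, at 5.28 to 5.81 in CHL2 and 4.56 to 5.19 in wild-type mice. No brighter Cct4 probe set passed. That of Dnajc18 was dim as well, at 5.72 to 6.07 in CHL2 and 5.44 to 5.52 in wild-type mice. In no member did a probe set that passed go against the one used. Cct6a, Hspa12a and Dnajc6, which rose in that test, had no probe set past the stricter adjustment over all probe sets.

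In the same fit 0 of 87 differed between females and males by limma's adjusted p (lowest adjusted p = 0.273), and 0.0275% of all genes passed. At an unadjusted p under 0.05 there were 8 members (9.20%), beside 10.6% of all genes. Of those 8, 7 were higher in females. The effect of genotype differed between the sexes for 0 members (lowest adjusted p = 0.969), beside 0.0055% of all genes, and 5 had an unadjusted p under 0.05, beside 5.04% of all genes, in a fit where 2 of the 4 combinations of genotype and sex held 1 mouse each.

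Partners of these chaperones were read from lists chosen beside the members: heat shock factors, Hsp90 and Hsp70 co-chaperones, prefoldins and CCT partners, tubulin folding cofactors with other small and mitochondrial chaperones, further J proteins, and lectin chaperones with disulfide isomerases of the endoplasmic reticulum. Of 87 measured genes on these lists, 8 rose and 3 fell, which is 12.6% beside 12.4% of all genes, with a median log2 change of 0.07. Hsp90 co-chaperones held 6 of the 11, with 4 of 24 higher and 2 of 24 lower, beside 6.4% and 6.01% of all genes.

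Ahsa1 and Ahsa2 encode activators of the Hsp90 ATPase, and both rose. Ahsa1 read 9.85, 9.89, 9.89 and 10.00 in CHL2 mice and 9.54, 9.36, 9.44 and 9.44 in wild-type mice (log2 change 0.46, SE 0.08, 1.37-fold, limma's adjusted p = 0.00619). Ahsa2 read 8.24, 8.29, 8.23 and 8.16 in CHL2 mice and 7.70, 7.56, 7.17 and 6.98 in wild-type mice (log2 change 0.74, SE 0.14, 1.67-fold, limma's adjusted p = 0.00708). Neither overlapped between the groups. Fkbp4, an immunophilin of steroid receptor complexes, rose 1.41-fold (log2 change 0.50, SE 0.12, adjusted p = 0.0205), and Sugt1, an Hsp90 co-chaperone used in kinetochore assembly, 1.30-fold (0.38, SE 0.10, adjusted p = 0.0367), where CHL2 191 stood above the other 3 CHL2 mice. The log2 change of Sugt1 was 0.19 without CHL2 191 (adjusted p = 0.480) and 0.57 without wild-type 161 (adjusted p = 0.0339). Sugt1 lost the call in 9 of 19 other settings, among them the fit without the sex term. A second, dimmer Sugt1 probe set read 8.41, 8.41, 8.40 and 8.52 in CHL2 mice and 8.01, 8.13, 8.08 and 7.86 in wild-type mice. By limma among all probe sets it rose (log2 change 0.44, SE 0.10, adjusted p = 0.0225), while the probe set used did not pass there (adjusted p = 0.0680). Chordc1 (morgana) read 7.98, 8.04, 8.16 and 8.23 in CHL2 mice and 8.90, 8.41, 8.55 and 8.38 in wild-type mice, and fell with a log2 change of -0.53 (SE 0.13, limma's adjusted p = 0.0230), which was -0.84 without CHL2 191 (adjusted p = 0.00900) and -0.22 without wild-type 161 (adjusted p = 0.420). Tomm70a, the mitochondrial import receptor at which Hsp70 and Hsp90 dock, read 10.72, 10.78, 10.57 and 10.64 in CHL2 mice and 11.15, 11.41, 11.40 and 11.25 in wild-type mice. The groups did not overlap. Its log2 change was -0.59 (SE 0.10, a 1.5-fold fall, limma's adjusted p = 0.00353) and all 5 of its probe sets lay in this direction. Those not used gave smaller log2 changes of -0.31, -0.23, -0.22 and -0.01. None of them passed among all probe sets, and the last lay under 5 in all mice.

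Among 17 prefoldins and CCT partners, 2 rose and 0 fell, beside 6.4% and 6.01% of all genes. Vbp1, a prefoldin subunit that hands actin and tubulin to CCT, read 10.27, 10.30, 10.26 and 10.30 in CHL2 mice and 9.83, 9.78, 9.84 and 9.78 in wild-type mice. Both groups were tight and far apart for this gene, and the log2 change was 0.47 (SE 0.07, 1.38-fold, limma's adjusted p = 0.00276). Pdcl, a phosducin-like partner of CCT, rose 1.41-fold (0.49, SE 0.12, adjusted p = 0.0243) with overlapping groups, and lost the call without the sex term (0.36, adjusted p = 0.0798). Its second, dimmer probe set read 7.02, 7.03, 7.22 and 7.24 in CHL2 mice and 6.84, 6.71, 6.71 and 6.64 in wild-type mice, without overlap. By limma among all probe sets, this second one rose (log2 change 0.41, SE 0.10, adjusted p = 0.0413). Of the tubulin folding cofactors that act after CCT, Tbca rose 1.28-fold (0.36, SE 0.08, adjusted p = 0.0185) and Tbcb 1.35-fold (0.43, SE 0.10, adjusted p = 0.0158), while Tbce fell 1.41-fold (-0.50, SE 0.11, adjusted p = 0.0124), with a log2 change of -0.32 without CHL2 191 (adjusted p = 0.247). None of 6 genes for heat shock factors and their binding proteins, 10 Hsp70 co-chaperone genes, 5 further J protein genes and 13 genes for lectin chaperones and disulfide isomerases passed limma's test. At an unadjusted p under 0.05 their counts were 0, 2, 1 and 3, beside 25.9% of all genes. Without CHL2 191, 1 gene of the lists rose (Tbcc) and 2 fell (Chordc1 and Pdia4), beside 1.61% and 2.25% of all genes. Without wild-type 161, 5 rose (Ahsa1, Ahsa2, Manf, Sugt1 and Vbp1) and 2 fell (Tbce and Tomm70a), beside 1.96% and 2.79% of all genes.

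**Figure D5:**
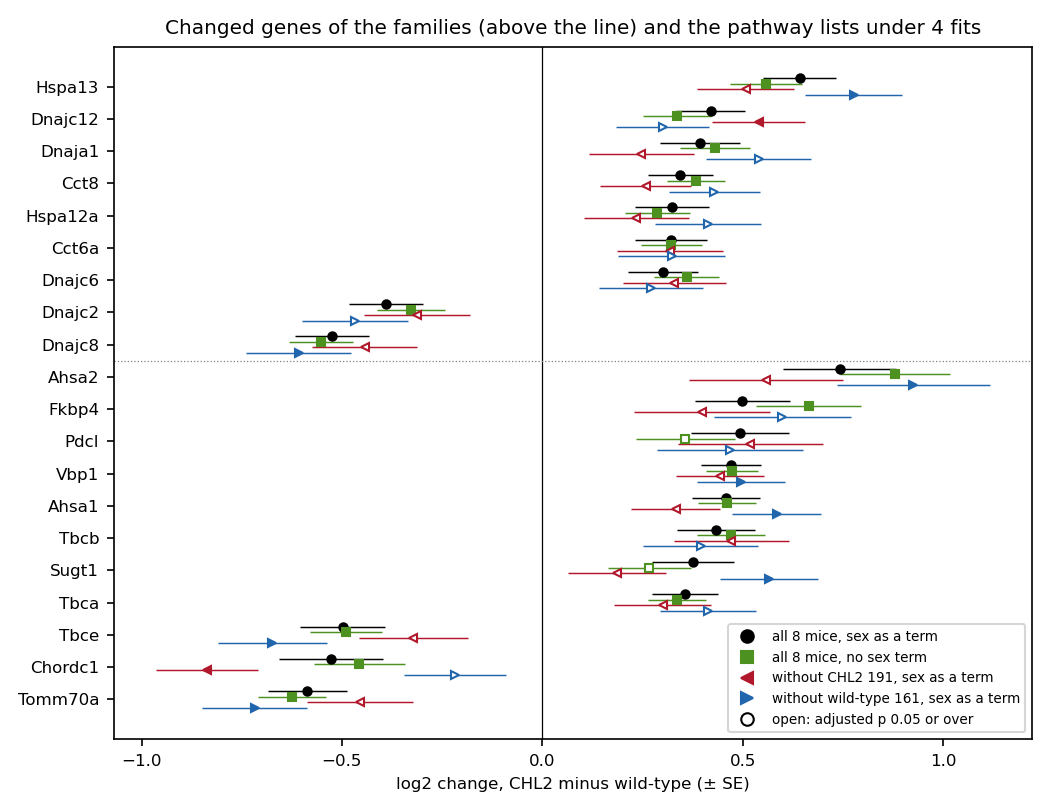
Log2 changes (CHL2 minus wild-type, bars of 1 SE) of the 9 changed members, above the dotted line, and the 11 changed partner genes, below it, under 4 fits. Filled symbols have an adjusted p under 0.05. Every gene keeps its direction in all 4 fits, while most symbols of the fits without CHL2 191 or without wild-type 161 are open.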

How the data were processed

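Striatal RNA of 8 mice was measured on Affymetrix GeneChip arrays, with 1 array for each mouse. The deposited values are log2 expression levels per probe set, made by the authors with RMA and the affy package per the submitters' processing notes. Neither version is given in the sources used here. RMA forces arrays to a common distribution, so a shift shared by most genes cannot be seen, and it compresses changes of dim genes. Arrays give no read depth. Precision rests on the number of mice and on signal over background.

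Of 45101 probe sets, 64 controls were left out, 34945 had 1 symbol in the platform annotation, 932 had several and 9160 were not listed. The brightest single-symbol probe set, by its mean, stood for each of 18193 genes. Genotype and sex were fitted over all genes with limma 3.58.1 in R 4.3.3 (lmFit, eBayes, Benjamini-Hochberg adjustment). In simulated data with no sex effect, the script recovered the average size of known changes, and those that passed had the right sign. How sex bears on the fit was not tested there. Neither the labels nor the design text state a test. The members and lists were chosen with earlier results of these data known. Named were all members and partner genes past the threshold and a list of classical members, whatever their values. Every other gene was named after its values were seen. Alternatives were no sex term, a trended and robust prior, renormalization, median centring, no dim genes, probe set means, a floor, array weights and left-out mice. Protein sequences were not used here.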

Additional observations from a re-analysis of the deposited data

Results flagged for a closer look

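In 1 of the 88 groups of 4 mice examined, for the 44 named genes, 1 mouse stood far from the other 3. Sugt1 measured 9.34 in CHL2 mouse 191, against 8.91 to 8.98 in the other CHL2 mice, and its gap to the nearest of them was 0.832 of the group's whole range, above Dixon's critical value for 4 samples. Chance gives about 1 group in 20, so 1 of 88 is no pattern. Without mouse 191 the log2 change of Sugt1 was 0.19 (adjusted p = 0.480 by limma). In a second Sugt1 probe set, not among the 88 groups, mouse 191 was again the highest CHL2 mouse. It read 8.52 there, against 8.40 to 8.41 in the other CHL2 mice and 7.86 to 8.13 in wild-type mice.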

How the results depend on the processing

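Of the 20 named genes past the threshold, 0 kept the call in all 19 alternatives, and 0 changed direction. Hspa13, Dnajc8, Ahsa1, Tomm70a and Vbp1 each lost it in 1, the fit without CHL2 191. Among the 24 named genes that did not pass, 14 passed in no alternative, 10 passed in at least 1, and 21 values of 9 genes changed sign without passing. The members that rose numbered 7 (all genes 6.40%), against 15 without the sex term (7.66%), 13 with a trended and robust prior (8.17%), 13 without dimmer genes (15.4% of 9097 genes), 4 with median centring (5.99%) and 4 at the floor (4.66%). Those that fell numbered 2 (6.01%), against 5 with the trended and robust prior (7.04%), 5 without dimmer genes (12.5%) and 1 on the mean of probe sets (5.39%). Partner genes that rose numbered 8 and those that fell 3, against 4 and 1 at the floor (4.66% and 4.14% of all genes). Member probe sets that rose numbered 11 (3.26% of all probe sets), against 20 without sex (4.06%) and 20 with the trended and robust prior (4.21%). With 1 mouse left out and sex kept, 1 to 6 members rose and 1 to 3 fell, and over all fits that left out mice 1 to 10 partner genes rose and 2 to 4 fell. The cause was not tested. Without wild-type 161 and with no sex term 13 members rose, without CHL2 191 and with no sex term 14, and without both 11. No paired analysis was possible because no mouse number is shared between the groups. Genes under 5 on the log2 scale lie near background, which limits what their changes show.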
